A study of Homo sapiens with 7 samples.

Results

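The genes described here lie on the long arm of chromosome 11, in bands q22 to q23, from POGLUT3 to BCL9L. They are 45 listed genes of one stretch of 10.5 Mb, of which 40 have a row among the 16522 genes tested in the authors' deposited table. ARHGAP20, NNMT, CADM1, FXYD6 and IL10RA were not analysed here. The list was drawn up with the fold changes of this same comparison in view, so the values below describe the genes and none of them is independent support for a regional change. The study sequenced RNA of PC9, an established human lung adenocarcinoma line with an activating EGFR mutation. The 7 libraries are 3 of parental PC9 cells and 4 of PC9 cells with a knockout of AXL, a receptor tyrosine kinase. The knockout cells come from 2 clones, each grown from a single sorted cell, with 2 libraries per clone. All were grown in RPMI medium, no drug is named in the labels, and the clone names in the series design differ from each other and from the sample labels. The protocol, bulk MARS-seq, counts the 3' ends of polyadenylated transcripts. Separate cultures for the libraries within a group are not stated, and the p-values then reflect only how far these libraries differed, which may be technical.

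Neighbouring genes of a chromosome arm need not share a function. What they do share is their DNA copy number, so a gain or loss of a segment in a cancer cell tends to change the transcripts of many genes in it by similar, modest factors. Genes with strong control of their own can depart from such a shared level. Band 11q23 is known for KMT2A, a histone methyltransferase gene that is rearranged in acute leukaemias, and 11q22-q23 for the frequent loss of CADM1 and other genes in carcinomas. DNA copy number was not measured in these samples. A change that arose in a founding cell of a clone and an effect of losing AXL cannot be told apart in this design.

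Promoters are shown for the members and neighbours that the results turn on. RDX, FDX1 and BACE1 were among the members with the largest rises. RNF214, SDHD and NKAPD1 each start beside a second measured gene on the other strand. TMEM25 was the member that fell, and it too starts beside such a gene, the barely expressed TTC36-AS1. Each sequence runs 5′ to 3′ on the gene's strand from 250 bases before to 50 bases after the RefSeq start (GRCh38.p14), and capitals mark motif matches on either strand. The motifs are the GC box, GGGCGG, the CCAAT box, named by its letters, and the core of the TATA box, TATAAA.
RDX (chr11:110296565-110296864, - strand): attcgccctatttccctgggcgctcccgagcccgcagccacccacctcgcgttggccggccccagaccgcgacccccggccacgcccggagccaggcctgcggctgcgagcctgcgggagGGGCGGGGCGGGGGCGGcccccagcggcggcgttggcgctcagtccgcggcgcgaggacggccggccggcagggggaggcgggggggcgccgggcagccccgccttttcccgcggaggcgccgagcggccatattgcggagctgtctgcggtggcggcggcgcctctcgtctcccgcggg
FDX1 (chr11:110429698-110429997, + strand): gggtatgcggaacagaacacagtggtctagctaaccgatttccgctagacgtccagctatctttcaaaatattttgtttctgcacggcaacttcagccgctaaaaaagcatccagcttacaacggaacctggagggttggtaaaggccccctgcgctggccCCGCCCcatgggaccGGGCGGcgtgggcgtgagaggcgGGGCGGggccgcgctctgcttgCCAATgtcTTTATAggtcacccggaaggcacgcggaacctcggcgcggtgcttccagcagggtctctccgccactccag
BACE1 (chr11:117316207-117316506, - strand): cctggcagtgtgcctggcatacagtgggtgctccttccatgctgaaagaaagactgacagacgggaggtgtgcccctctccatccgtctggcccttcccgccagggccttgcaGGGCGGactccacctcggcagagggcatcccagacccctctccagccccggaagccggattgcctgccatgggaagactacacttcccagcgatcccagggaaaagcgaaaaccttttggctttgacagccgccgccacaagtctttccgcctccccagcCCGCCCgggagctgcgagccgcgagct
RNF214 (chr11:117232421-117232720, + strand): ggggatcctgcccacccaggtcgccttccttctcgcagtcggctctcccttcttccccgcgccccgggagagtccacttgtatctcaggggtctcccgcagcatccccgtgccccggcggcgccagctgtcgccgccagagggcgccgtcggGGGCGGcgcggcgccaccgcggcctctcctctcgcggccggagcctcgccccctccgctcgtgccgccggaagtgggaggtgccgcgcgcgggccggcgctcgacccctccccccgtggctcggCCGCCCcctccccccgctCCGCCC
SDHD (chr11:112086623-112086922, + strand): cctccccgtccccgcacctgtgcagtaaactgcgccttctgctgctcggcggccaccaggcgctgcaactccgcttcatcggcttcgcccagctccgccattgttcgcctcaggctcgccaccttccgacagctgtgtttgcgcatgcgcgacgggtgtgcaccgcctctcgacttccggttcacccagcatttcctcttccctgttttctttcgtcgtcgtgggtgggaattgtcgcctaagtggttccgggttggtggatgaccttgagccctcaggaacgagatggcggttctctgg
NKAPD1 (chr11:112074049-112074348, + strand): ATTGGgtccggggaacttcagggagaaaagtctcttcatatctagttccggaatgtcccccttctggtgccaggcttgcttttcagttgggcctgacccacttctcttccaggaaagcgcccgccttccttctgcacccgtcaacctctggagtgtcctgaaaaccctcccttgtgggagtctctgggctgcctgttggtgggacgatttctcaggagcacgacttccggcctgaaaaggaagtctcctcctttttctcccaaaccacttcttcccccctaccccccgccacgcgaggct
TMEM25 (chr11:118530942-118531241, + strand): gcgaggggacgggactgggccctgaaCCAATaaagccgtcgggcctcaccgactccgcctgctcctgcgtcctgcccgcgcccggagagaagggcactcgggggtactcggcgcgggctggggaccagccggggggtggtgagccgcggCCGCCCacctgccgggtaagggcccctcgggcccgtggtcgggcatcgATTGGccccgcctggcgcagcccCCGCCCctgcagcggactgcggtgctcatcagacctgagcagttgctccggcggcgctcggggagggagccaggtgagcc
The GC box GGGCGG occurs 3 times each in the windows of RDX, FDX1 and RNF214, 2 times in those of BACE1 and TMEM25, and is not among the letters of the SDHD and NKAPD1 windows. FDX1 is the only gene of these 7 with a TATAAA match. The table of promoters held 33 of the 40 measured members and no entry for LAYN, CRYAB, TIMM8B, IL18, NCAM1, TAGLN and BCL9L. GGGCGG was found in 27 of the 33 (81.8%), against 44.6% of 27305 promoters of the same length, 1 per gene. CCAAT was found in 12 of 33 (36.4%, against 35.7%) and TATAAA in 2 of 33 (6.06%, against 12.0%). The median GC content of these member promoters was 65.7%, within a range of 51.7% to 80.3%, and that of all promoters was 58.3%. Broadly expressed genes commonly have GC-rich promoters, and a comparison restricted to expressed genes was not made.

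The authors' deposited table lists for every gene an average of normalized counts across the 7 libraries, the log2 ratio of AXL knockout to parental cells with a standard error, and the DESeq2 Wald test. It holds no values per library, so which libraries or which clone are high or low, and whether the groups overlap, were not analysed here. Group levels below are normalized counts that solve the deposited average and ratio together, 1 value per group. They are not per length and are not compared between genes. A value after ± is the authors' standard error on the log2 scale. The averages sum to 12209504 normalized counts, and size factors inferred from the genes with the fewest counts lay between 0.938 and 1.06. AXL itself fell by 6.28 ± 0.18 on the log2 scale, from a level of 1417 to 18.2. The epithelial markers KRT8, KRT18, KRT19, EPCAM, CDH1 and EGFR all had means of at least 2656, with summed levels of 89436 in parental and 133915 in knockout cells. The list was split: KRT8, KRT18 and KRT19 had higher levels in knockout cells, while EPCAM stood at 7953 and 7789, CDH1 at 3007 and 2392, and EGFR at 12828 and 11092. Of 5 leukocyte markers only CD14 had a row, at 2.27 and 13.4, and of 5 fibroblast markers only COL1A1, at 126 and 84.0. The endothelial list had 3 of 4 with a row, summing to 807 and 2087, with PECAM1 at 351 and 1777 and CDH5 at 455 and 305, and the neural list 1 of 4, ENO2 (212 and 94.0). The 13 protein-coding genes of the mitochondrial genome, a sign of RNA quality among other things, were all lower, with a median of -0.73. The part of these markers in the results on 11q was not tested. In bulk RNA, fewer cells of a type and less RNA per cell cannot be told apart.

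Most members were moderately higher in AXL knockout cells in the authors' deposited table. Of the 40 measured, 33 were higher at an adjusted p under 0.05 of the DESeq2 Wald test (82.5%), 1 was lower and 6 did not pass. Over all genes tested, the same threshold called 38.0% in either direction, 19.5% as higher and 18.5% as lower. The list was chosen from this contrast, so nothing is read from the difference between these shares. The median log2 fold change of the members was 0.45, a 1.36-fold higher level, with quartiles of 0.28 and 0.59, beside -0.01 for all genes tested. Fold changes lay above 0 for 37 members and below 0 for 3. Among the 33 that rose, 29 rose by less than 2-fold. CRYAB, BACE1, DIXDC1 and FDX1 rose more.

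**Figure D1:**
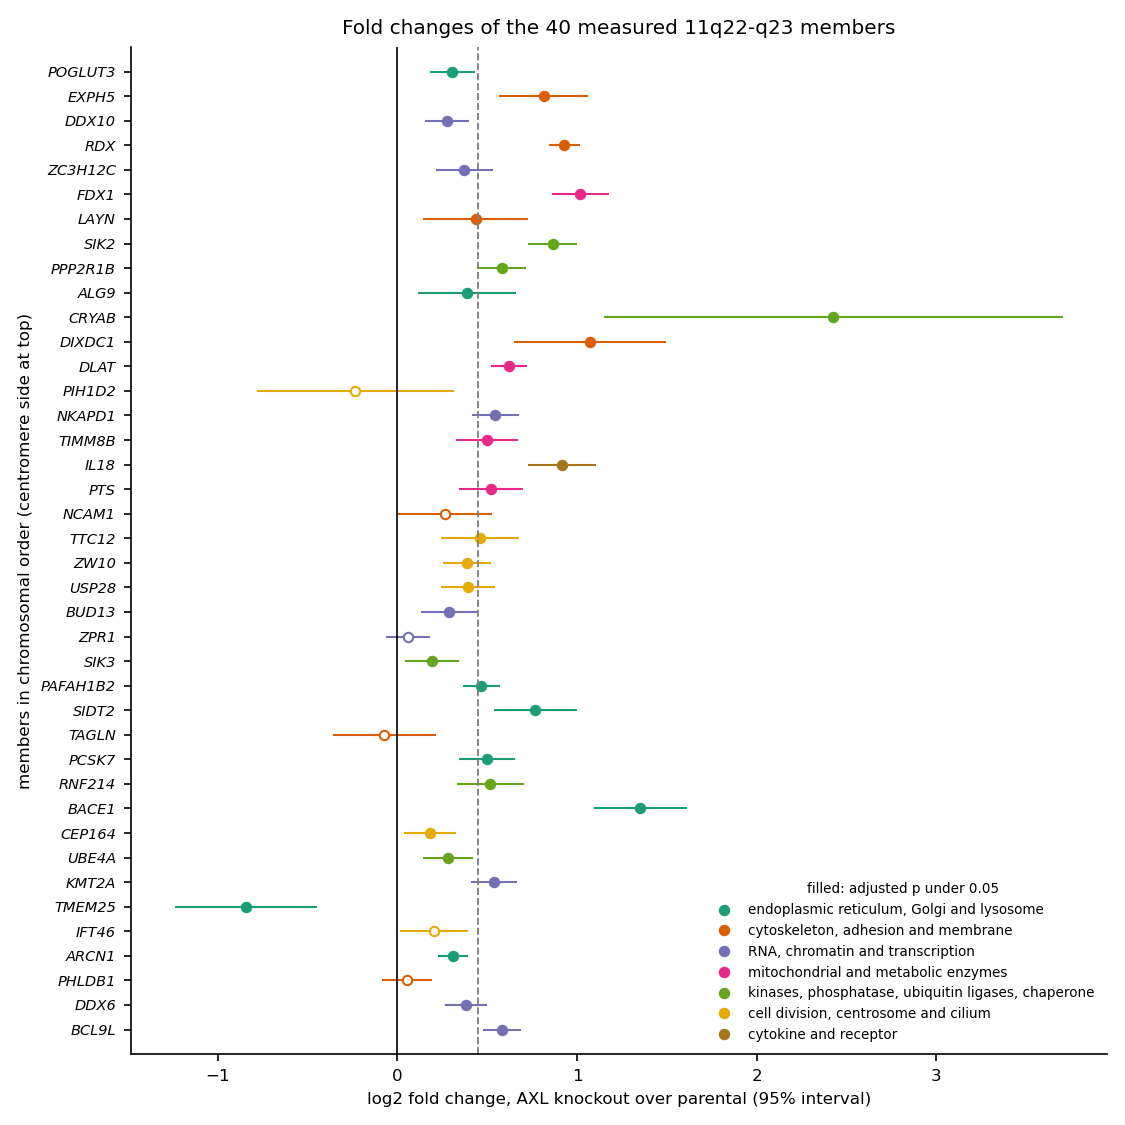
Log2 fold change of AXL knockout over parental cells for the 40 measured members (x axis) in chromosomal order (y axis), with 95% intervals from the authors' standard errors, coloured by role. Filled points have an adjusted p under 0.05, the dashed line is the members' median of 0.45, and TMEM25 is the filled point to the left of 0.

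The members' fold changes were not all one value. The 95% interval of 16 members included the members' own median, 12 lay wholly above it and 12 wholly below it. The standard deviation over members was 0.49 on the log2 scale, while the median standard error of a member was 0.08. Over the 40 members, which share libraries and in part neighbourhoods, values fell slightly with distance from POGLUT3 (Pearson r -0.32, Spearman rho -0.35). The 18 members from POGLUT3 to PTS had a median of 0.56 and the 4 from NCAM1 to USP28 of 0.39. The 10 from BUD13 to CEP164 had 0.38 and the 8 from UBE4A to BCL9L 0.30. These medians leave out the other genes of the stretch. Bins of 10 consecutive expressed protein-coding genes, members or not, are described below. The 6 bins that hold members had medians of 0.33, 0.56, 0.48, 0.38, 0.53 and 0.39 in chromosomal order, with no steady fall. Against the mean count (log10) Pearson r was -0.18 and Spearman rho 0.03, and against gene length (log10) they were 0.08 and 0.08.

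**Figure D2:**
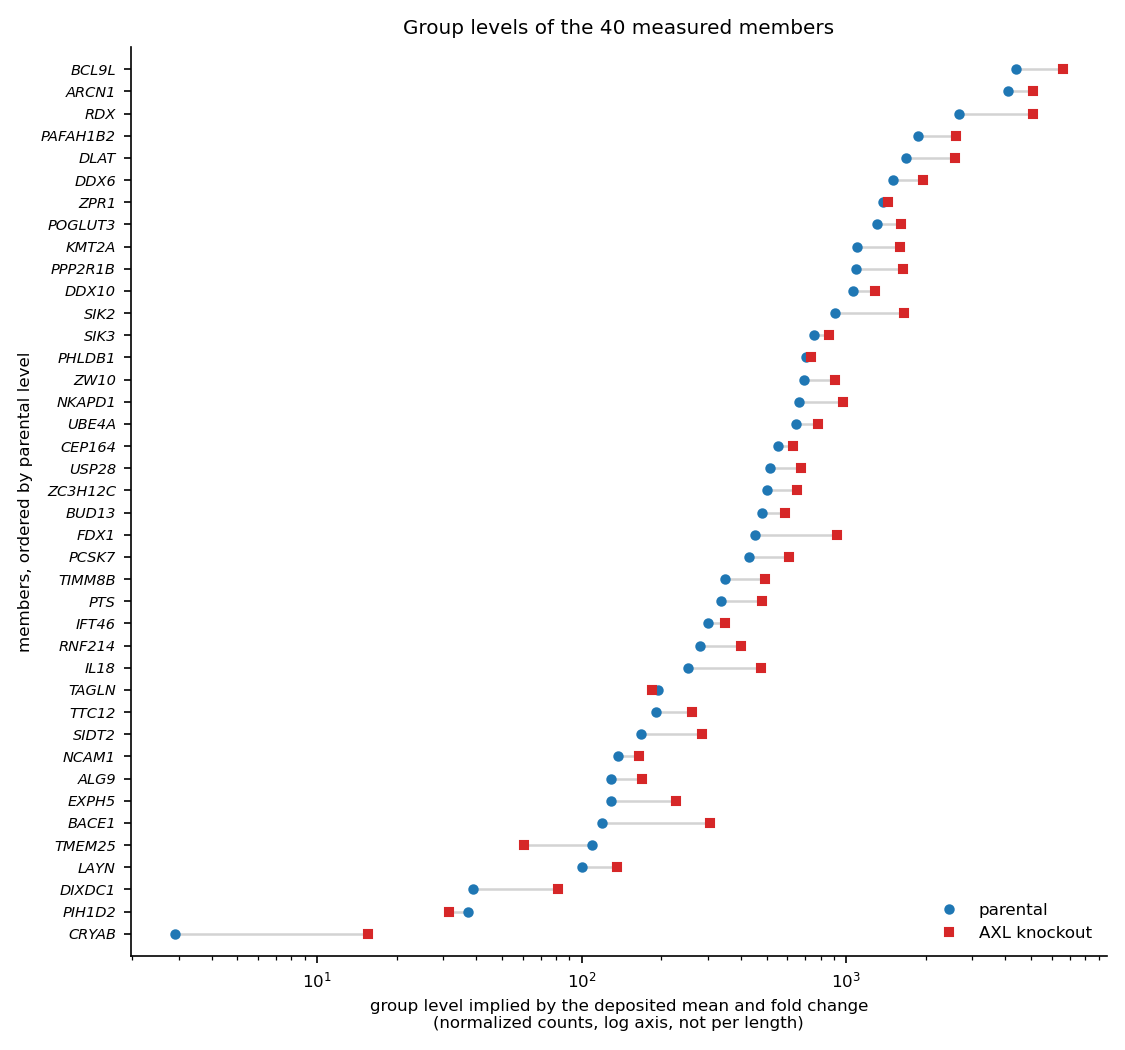
Group levels of the 40 measured members in parental (blue circles) and AXL knockout cells (red squares), in normalized counts on a log axis, ordered by parental level on the y axis. Each level is implied by the deposited mean and fold change and has no error bar. The red square lies to the left for TMEM25, PIH1D2 and TAGLN, of which TMEM25 passed the test.

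Metabolic and mitochondrial members all rose in the authors' deposited table, 4 of the 4 measured, with a median log2 fold change of 0.57. FDX1 encodes ferredoxin 1, which passes electrons to mitochondrial P450 enzymes and takes part in protein lipoylation (GRCh38 chromosome 11, 110429883 to 110464881, plus strand, GENCODE 29). Parental cells had a level of 454 and knockout cells one of 920 (1.02 ± 0.08). DLAT is the lipoylated E2 subunit of the pyruvate dehydrogenase complex (112024814 to 112064390), and it went from 1684 to 2587 (0.62 ± 0.05). PTS makes a precursor of tetrahydrobiopterin, the cofactor of aromatic amino acid hydroxylases, and rose from 336 to 482 (0.52 ± 0.09). TIMM8B, a small chaperone of the mitochondrial intermembrane space, rose from 348 to 491 (0.50 ± 0.09).

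Among 8 members of the endoplasmic reticulum, Golgi apparatus and lysosome, 7 rose and 1 fell. BACE1, the beta-secretase that cleaves amyloid precursor protein (117285207 to 117316259, minus strand), had levels of 120 and 305 by the authors' deposited table. Its log2 fold change of 1.35 ± 0.13 was the largest of the 38 members with a mean of at least 50, and its 3' end overlaps RNF214. SIDT2, a lysosomal membrane protein, rose from 167 to 285 (0.77 ± 0.12). PCSK7, a proprotein convertase, had 0.50 ± 0.08, and PAFAH1B2, a catalytic subunit of an intracellular PAF acetylhydrolase, had 0.47 ± 0.05. Smaller rises were those of ALG9, a mannosyltransferase of N-glycan assembly (0.39 ± 0.14), ARCN1, the delta subunit of the COPI coat (0.31 ± 0.04), and POGLUT3, an O-glucosyltransferase of the endoplasmic reticulum (0.31 ± 0.06). TMEM25, an immunoglobulin-type membrane protein (118531041 to 118547280, plus strand), went the other way, from 109 to 60.8. It fell by 0.84 ± 0.20 on the log2 scale, a 1.79-fold lower level with an adjusted p of 1.44e-04 by the DESeq2 Wald test.

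Of the 7 measured members of the cytoskeleton, adhesion and membrane group, 4 rose and 3 did not pass. RDX encodes radixin, which links actin filaments to the plasma membrane (109864295 to 110296722, minus strand). By the authors' deposited table it rose from 2664 to 5077 (0.93 ± 0.04), with the smallest adjusted p of all members, 8.11e-99. DIXDC1, a regulator of WNT signalling that binds actin, rose from 38.8 to 81.5 (1.07 ± 0.22). EXPH5, an effector of RAB27B in vesicle traffic, rose from 129 to 227 (0.81 ± 0.13), and LAYN, a hyaluronan receptor, from 101 to 136 (0.44 ± 0.15). NCAM1, the neural cell adhesion molecule, stood at 137 and 165 (0.27 ± 0.13, adjusted p 0.108). PHLDB1, which anchors microtubules at the cell cortex, had levels of 708 and 735 (0.05 ± 0.07, adjusted p 0.598). TAGLN, the actin-binding protein transgelin of smooth muscle (117199321 to 117204782, plus strand), had 194 and 184 (-0.07 ± 0.15, adjusted p 0.756).

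The group of kinases, a phosphatase subunit, ubiquitin ligases and a chaperone rose in 6 of 6 cases, with a median of 0.55 in the authors' deposited table. SIK2, a salt-inducible kinase that phosphorylates CRTC coactivators, went from 906 to 1649 (0.87 ± 0.07), whereas its relative SIK3, also a member, went from 754 to 862 (0.19 ± 0.08, adjusted p 0.0348). PPP2R1B, the beta scaffold subunit of protein phosphatase 2A, rose by 0.58 ± 0.07, from 1094 to 1640. RNF214 had 0.52 ± 0.09, and UBE4A, a ubiquitin chain elongation factor, had 0.28 ± 0.07. CRYAB, the small heat shock protein alpha-B-crystallin, was barely expressed, with levels of 2.90 and 15.6 and an imprecise fold change of 2.43 ± 0.65. IL18, the gene of an interleukin-1 family cytokine made as an inactive precursor by epithelial cells, went from 252 to 475 (0.92 ± 0.10). Its group held only 1 measured member.

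Of 8 genes of RNA metabolism, chromatin and transcription, 7 were higher in the authors' deposited table, and the log2 fold changes of the group ran from 0.06 to 0.58. BCL9L, a coactivator that binds beta-catenin, rose from 4399 to 6579 (0.58 ± 0.05). KMT2A (118436464 to 118526832) rose from 1098 to 1595 (0.54 ± 0.06) and NKAPD1 from 665 to 970 (0.54 ± 0.07). DDX6, a helicase of P-bodies that acts in mRNA decay, had 0.38 ± 0.06. ZC3H12C, an endoribonuclease of the regnase family, had 0.37 ± 0.08, BUD13, a splicing factor, 0.29 ± 0.08, and DDX10, a helicase of ribosome assembly, 0.28 ± 0.06. ZPR1, a zinc finger protein, did not pass, at 1381 and 1441 (0.06 ± 0.06, adjusted p 0.484). Its next measured neighbour on the proximal side is BUD13.

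The 6 genes of cell division, centrosome and cilium had the lowest median of the groups with more than 1 measured member, 0.30, with 4 higher and 2 that did not pass in the authors' deposited table. TTC12, an assembly factor of ciliary dynein arms, had 0.46 ± 0.11. USP28, a deubiquitinase that acts with 53BP1, rose from 513 to 675 (0.40 ± 0.08) and ZW10, a kinetochore protein of the spindle checkpoint, from 691 to 905 (0.39 ± 0.07). CEP164, a protein of the centriole's distal appendages, had 0.18 ± 0.07 with an adjusted p of 0.0398 by the DESeq2 Wald test. IFT46, a subunit of the intraflagellar transport complex B, stood at 301 and 347 (0.20 ± 0.10, adjusted p 0.0856). PIH1D2, related to dynein assembly factors, stood at 37.2 and 31.6 (-0.23 ± 0.28, adjusted p 0.564).

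The stretch holds 21 more tested genes that are not members. By the authors' deposited values, 12 (57.1%) were higher and none was lower at an adjusted p under 0.05 of the DESeq2 Wald test. Over all genes tested, 19.5% were higher. The median log2 fold change of the 21 was 0.60, the value of C11orf71, which had a mean of 19.4 and did not pass. All 9 with a mean of at least 50 were higher, with a median of 0.55. Of all tested genes with that mean, 26.0% were higher. TMPRSS4, a transmembrane serine protease gene, went from 46.7 to 578 (3.63 ± 0.15), more than any gene with that mean in the stretch, and its relative TMPRSS13 from 480 to 996 (1.05 ± 0.07). The epithelial adhesion genes MPZL2 and MPZL3 had 0.85 ± 0.15 and 0.71 ± 0.10. Near the members' median stood SDHD, a subunit of succinate dehydrogenase (0.55 ± 0.07), REXO2, a mitochondrial exonuclease (0.52 ± 0.06), ATP5MG, a subunit of ATP synthase (0.52 ± 0.06), RBM7 (0.38 ± 0.09) and CFAP68 (0.33 ± 0.08). POU2AF3, BCO2 and BACE1-AS rose from under 10 counts, to levels of 40.4, 26.9 and 20.4. The other 9, with means under 50, did not pass.

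Higher genes did not stop at the ends of the stretch. Just proximal to POGLUT3, in the authors' deposited table, NPAT had 0.60 ± 0.09, ATM 0.44 ± 0.10, SLC35F2 0.36 ± 0.05 and CUL5 0.27 ± 0.08, while ACAT1 with 0.18 ± 0.09 did not pass. Just distal to BCL9L, UPK2, the gene of uroplakin 2, went from 192 to 1487 (2.95 ± 0.10), SLC37A4 had 0.98 ± 0.07, RPS25 0.45 ± 0.04 and TRAPPC4 0.40 ± 0.06, while CENATAC with 0.25 ± 0.15 did not pass. Expressed protein-coding genes (mean at least 50) of chromosome 11 were taken in order, 10 to a bin, which gave 62 full bins. The last 16 full bins, which begin 21.5 Mb proximal to POGLUT3 and reach almost to the end of the long arm, each had a median log2 fold change between 0.26 and 0.67. Of their 160 genes, 122 were higher and 9 lower. The first of these bins, from FZD4 to C11orf54, was mixed, with 5 of 10 genes higher and 3 lower. The next, which begins 14.7 Mb proximal to POGLUT3, had 8 of 10 higher and 0 lower. The other 46 bins had medians from -0.25 to 0.27, with 135 of 460 genes higher and 89 lower. Over 10404 expressed protein-coding genes of the nuclear chromosomes, at the same minimum mean, 26.5% were higher and 22.4% lower. The unbroken run of bins above 0.25 was delimited after the medians had been seen, and 2 of the other 46 bins, at 0.27 each, also lay above 0.25. The 6 bins that hold members had medians of 0.33 to 0.56, and the bins nearest the end of the arm, from SRPRA to THYN1, had 0.67 and 0.62. Distal to BCL9L the median over 69 genes was 0.49, and over the 42 genes in the 20 Mb proximal to POGLUT3 it was 0.38, beside 0.03 for the 464 genes farther away on that side.

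**Figure D3:**
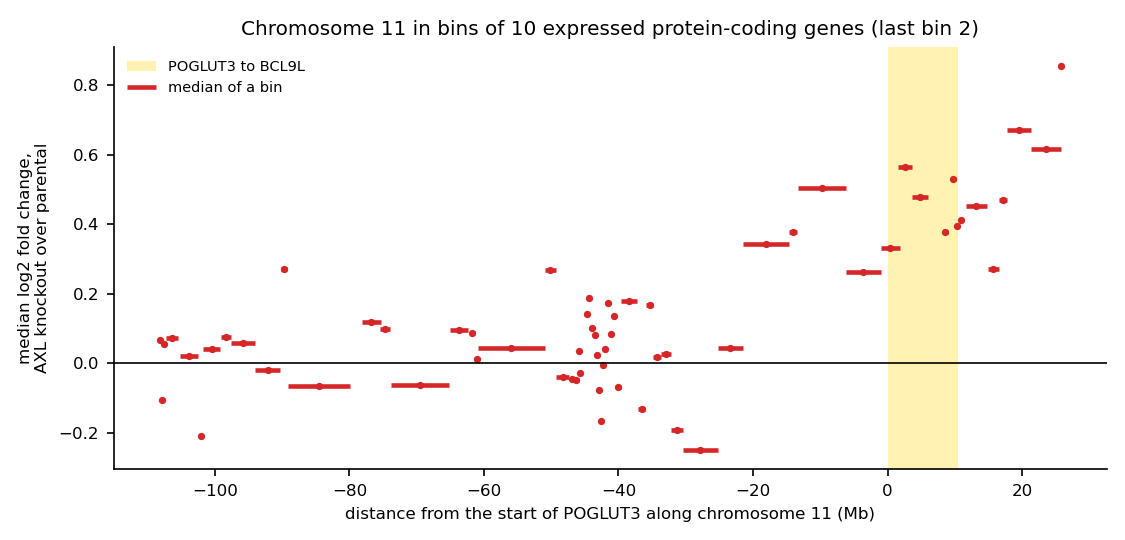
Median log2 fold change of AXL knockout over parental cells (y axis) in bins of 10 consecutive expressed protein-coding genes along chromosome 11, against distance from the start of POGLUT3 (x axis, Mb). Bars span the genes of a bin, the last bin holds 2 genes, and the shaded stretch runs from POGLUT3 to BCL9L. The 16 last full bins lie between 0.26 and 0.67, on both sides of the shaded stretch.

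Chromosome 11 as a whole had a median of 0.12 over 622 such genes in the authors' deposited table. Medians of the other nuclear chromosomes ran from -0.11 to 0.08.

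Partners of the members in complexes, pathways and gene families, encoded on other chromosomes, were set beside them. Of 95 such partners measured in the authors' deposited table, 23 were higher and 15 lower at an adjusted p under 0.05 (24.2% and 15.8%), with a median log2 fold change of 0.05. In 17 of the 22 sets with a measured member, the member's fold change lay above that of every partner on another chromosome. The members, including the barely expressed CRYAB, were listed with these fold changes in view. Nothing is read from this tally, and some sets held only 1 or 2 such partners. It also takes no account of standard errors, so that DDX6 (0.38 ± 0.06) counted as above CNOT1 (0.36 ± 0.05). The coatomer subunits other than ARCN1 ranged from COPA (-0.16, adjusted p 0.0147) to COPG2 (0.22, adjusted p 0.117). Of these, COPE (0.21) was called higher and COPA lower, and the rest did not pass. RDX stood at 0.93 beside its ERM relatives EZR (0.19), which rose, and MSN (-1.13), which fell from 11467 to 5233. SIK2 stood at 0.87 beside SIK1, which fell from 53.0 to 16.7 (-1.66). PPP2R1B had 0.58, while PPP2R1A, the alpha form of the same scaffold, fell by 0.13. The small TIM partners TIMM8A, TIMM9 and TIMM13 did not pass, nor did GCH1, SPR, QDPR and PCBD1 beside PTS. The 5 members that did not lie above all their partners were DLAT, ZW10, IFT46, PCSK7 and TAGLN. PDK2, a kinase that inhibits pyruvate dehydrogenase, rose by 0.62 as DLAT did, whereas PDK1 fell by 0.64. Of the E1 subunits, PDHA1 rose by 0.19 and PDHB fell by 0.49. KNTC1, which works with ZW10 at kinetochores, rose by 0.52, and the convertases PCSK5 and PCSK6 rose by 0.72 and 0.59. The beta-secretase relative BACE2 rose by 0.62, beside 1.35 for BACE1. Beside IFT46, which did not pass, IFT27 and IFT25 of the same transport complex rose by 0.42 and 0.25. Beside KMT2A (0.54), the chromatin tether PSIP1 rose by 0.33 and the core subunit RBBP5 fell by 0.25. CTNNB1, the gene of beta-catenin, fell by 0.38 beside a rise of 0.58 in BCL9L.

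**Figure D4:**
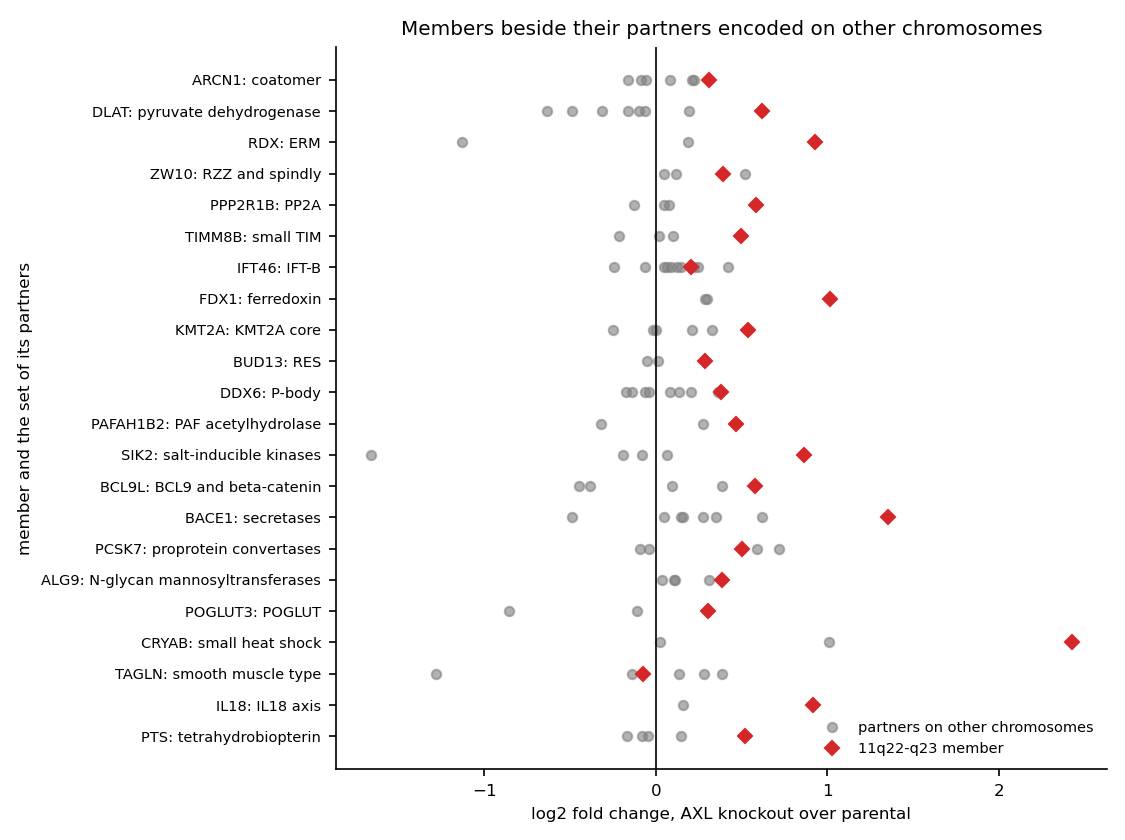
Log2 fold change of AXL knockout over parental cells (x axis) for 22 measured members (red diamonds) and their listed partners on other chromosomes (grey points), 1 set per line on the y axis. The diamond lies to the right of every grey point in 17 of the 22 sets. Members were listed with these fold changes in view, so nothing is read from this tally.

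Several members share promoters or transcript ends with a neighbour, which bears on how reads are assigned. TIMM8B and SDHD start head to head with their first 26 bases overlapping, and had 0.50 and 0.55 on the log2 scale in the authors' deposited table. PCSK7 and RNF214 start 99 bases apart on opposite strands and had 0.50 and 0.52. PIH1D2 and NKAPD1 overlap at their starts by 189 bases and differed, at -0.23 ± 0.28 and 0.54 ± 0.07. Among tested genes wholly within the stretch, 7 such pairs lay within 1000 bases, including C11orf71 and RBM7, neither of which is a member. BCL9L and UPK2, which reaches past the end of the stretch, also overlap at their annotated starts, and had 0.58 and 2.95. The SDHD, RNF214, NKAPD1 and TMEM25 windows printed above each contain the annotated start of the partner. At the other end, 14 of the 40 members have last 500 bases that overlap, wholly or in part, a tested gene of the opposite strand. TMEM25 and IFT46, TAGLN and PCSK7, and PIH1D2 and DLAT are pairs of this kind, so 4 of the 7 members that did not rise are among them. Whether strand was used in counting is not given in the sources, so the values of all 14 are uncertain. The other 10, among them BACE1 with RNF214 and SIK2 with PPP2R1B, were higher, and the median of the 14 was 0.51. Without these 14 members, 23 of 26 were higher, with a median of 0.39. BACE1-AS ends within BACE1 on the other strand, and both rose.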

How the data were processed

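RNA of 7 PC9 libraries (3 parental, 4 AXL knockout from 2 clones) was sequenced by bulk MARS-seq, and the reads were mapped and filtered, per the labels' protocols. The submitters' processing notes name DESeq2. Its version, the aligner, the counter, the use of strand and the build are not given in the sources. The authors deposited a signal per gene (baseMean, the average normalized count), per the file headers, beside a log2 ratio and its log2 standard error, the Wald score, and a p-value that they also adjusted by Benjamini-Hochberg over 16522 genes. The file names no contrast. The averages of the 68 genes with the fewest counts are sums of 7 steps, 3 tied to negative and 4 to positive ratios, and the sign matched for 31 of 31 genes counted on a single side, so positive values were taken as higher in knockout cells. That match is partly built in, since signs were used to assign the steps.

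No count test was possible without values per library, so the edgeR fit foreseen for such values was not run, and the authors' DESeq2 Wald test is reported. Group levels solve the deposited mean and fold change with weights of 3 and 4 libraries, and were checked on simulated data. Symbols matched 16428 of 16527 identifiers, and GENCODE 29 (GRCh38) gave positions for 16517. Promoters are RefSeq's, the first listed per gene, with motifs searched on both strands. Members and lists were chosen with earlier results of these data known. Named are all measured members, other genes of the stretch with a mean of at least 50, the 5 nearest such genes per side and partners from a list of 109 names, some of them synonyms, of which 102 had a row. POU2AF3, BCO2 and BACE1-AS were added after their values had been seen. Intervals are 95% normal intervals. Python 3.11.15, pandas 2.3.3, scipy 1.17.1 and matplotlib 3.10.9 were used. Alternatives were stricter thresholds, p-values from a t distribution on 5 degrees of freedom, a null of 0.5, a minimum fold of 1.5, minimum means, centring, and all genes of the stretch. For the median, a mean weighted by the inverse squared standard error was a further alternative.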

Additional observations from a re-analysis of the deposited data

How the results depend on the processing

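The count of 33 higher members stayed within 1.5 times under 6 of the 8 alternatives. It was 29 at an adjusted p under 0.01 and 27 with a t distribution with 5 degrees of freedom. With a mean of at least 20, which kept 39 of the 40 members, it was 32. Centring, a shift of only 0.0065, left it at 33. Another 45 of 61 were higher over all tested genes of the stretch (73.8%, against 82.5% of the members). Without members whose 3' end overlaps another gene, 23 of 26 were higher. Both of these use another set of genes with unchanged calls, so they do not measure how stable the calls are. The count was 6 when the null was a log2 change of at most 0.5 either way and 10 with a minimum fold of 1.5, which by construction drop smaller rises. Of all genes tested, the share called higher was 15.6% at 0.01, 11.3% with the t distribution, 4.10% under the null of 0.5, 8.21% with the minimum fold, 25.4% of those with a mean of at least 20, and 19.1% after centring. The single lower member, TMEM25, gave a count of 0 under the null of 0.5 and without overlapping 3' ends, a set that leaves TMEM25 out. The median of 0.45 was 0.44 with a mean of at least 20, 0.45 with a mean of at least 50 and 0.44 after centring. A mean of the members weighted by the inverse squared standard error was 0.47. Over other sets of genes, the median was 0.50 for all tested genes of the stretch and 0.39 without overlapping 3' ends. The alternative without overlapping 3' ends was added after seeing the data. Leaving out single libraries, and refits with edgeR or DESeq2, need values per library and were not run. No paired analysis was possible because the columns carry no values per library. LAYN, ALG9, SIK3 and CEP164 lost their call at 0.01, and with the t distribution CRYAB and BUD13 did as well. Depth limits CRYAB, with 8.71 implied parental counts in all.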
